A study of Mus musculus with 18 samples.

Results

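The ribosome-bound RNA recovered from retina was compared with that recovered from brain in 6 libraries, 3 retina positive and 3 brain positive, of the 18 in the series. All samples, retina and brain alike, came from mice of the genotype Tie2-cre+; NuTRAP+. Cre recombination of NuTRAP puts GFP on ribosomes through the ribosomal protein Rpl10a, and an anti-GFP pull-down of those ribosomes with their mRNA gives the positive fraction (translating ribosome affinity purification, TRAP). The retina positive libraries came from 2 pooled retinae each and the brain positive libraries from 0.5 of a brain each, with replicate numbers 421, 953 and 960 in both tissues. Age, sex and treatment are not given in the labels, and the count columns of all 6 libraries carry the suffix WT. The members are the 11618 genes listed in both tissue tables, of 14068 genes listed in at least 1 of the 3 tables of the series. Differences are given as retina minus brain, and values of single libraries in the order 421, 953, 960.

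Blood vessels of the retina and of the brain both hold a barrier: their endothelial cells are sealed by tight junctions, carry glucose, amino acid and organic anion transporters, and depend on Wnt/beta-catenin signalling. Besides endothelium, the Tie2 promoter drives Cre in the blood lineage, from which microglia and perivascular macrophages descend, so ribosomes of these cells can be tagged as well. A positive fraction also holds RNA of other cells to the extent that it was carried through the pull-down. In a bulk library, fewer cells of a type and less RNA per cell cannot be told apart.

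Over the joined genes the retina positive libraries held 5742882 to 10046750 counts and the brain positive libraries 18273952 to 27767995 counts. These were 90.7 to 93.1% of all listed counts in retina and 98.1 to 98.2% in brain. Log2 CPM, the log2 of counts scaled to a common library size over the 6 libraries, correlated across genes (a description, since genes are not replicates) at 0.940 to 0.973 between retina libraries, at 0.985 to 0.991 between brain libraries and at 0.697 to 0.752 between the tissues. The retina libraries were therefore less alike than the brain libraries. Retina library 421 stood apart in the mural cell genes Rgs5 and Pdgfrb, where it was high, and in microglial genes, where it was low. The summed level of endothelial genes was highest in retina library 421 and lowest in retina library 960. The endothelial marker list, 30 genes that most endothelial cells express, took 0.357 to 0.665% of counts in retina positive libraries and 0.773 to 1.09% in brain positive libraries. The same list took 0.0481 to 0.0534% in retina inputs and 0.0285 to 0.0292% in brain inputs, the inputs being part of each cleared lysate kept before the pull-down.

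Retina and brain positive fractions differed in most genes. With edgeR's quasi-likelihood test and Benjamini-Hochberg adjustment over all 11618 genes, 3995 genes were called higher in retina (34.4% of those tested) and 3950 were called lower (34.0%) at an adjusted p under 0.05, together 7945 genes (68.4%). Of these, 2221 were higher by 2-fold or more (19.1%) and 1884 lower by 2-fold or more (16.2%). The 3 retina and the 3 brain libraries did not overlap in 8559 genes (73.7%), with retina above brain in 4257 (36.6%) and below it in 4302 (37.0%). The median log2 fold change over all genes was -0.01, with the 5th percentile at -1.72 and the 95th at 2.11. Calls of 4-fold or more were made for 662 genes higher and 352 genes lower in retina. The labels call the samples biological replicates, and the p-values measure the spread between these 3 and 3 samples.

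**Figure D1:**
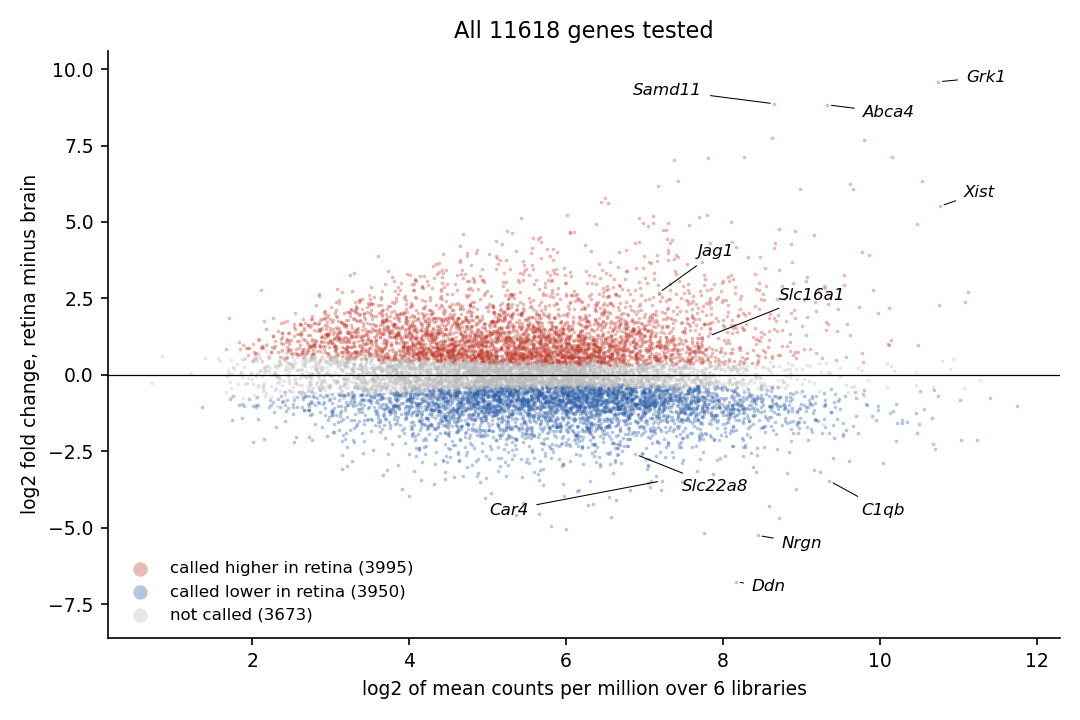
Log2 fold change (retina minus brain) of each of the 11618 genes against its mean level over the 6 positive libraries (log2 CPM), with called genes in red (3995 higher in retina) and blue (3950 lower). The largest differences are upward, among photoreceptor genes such as Grk1, Samd11 and Abca4, and downward for Ddn and Nrgn.

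Among the 4 marker genes, Jag1 and Slc16a1 rose in retina while Slc22a8 and C1qb fell. Jag1, a ligand of Notch receptors, had 309.5, 264 and 179.7 CPM in the retina libraries, against 35.8, 49.3 and 32.4 CPM in the brain libraries (log2 fold change 2.68 ± 0.24 SE, adjusted p = 9.22e-06). The lowest retina library was more than 3 times the highest brain library. In brain the positive libraries held 5.40 times the input level of Jag1, in retina 1.05 times, so the retinal transcript took about the same share of the whole lysate as of the pull-down. Slc16a1, which encodes the monocarboxylate transporter MCT1, had 392, 244 and 316 CPM in the retina libraries, against 159, 116 and 121 CPM in the brain libraries (log2 fold change 1.26 ± 0.20 SE, adjusted p = 0.000358). All 3 retina libraries were above all 3 brain libraries, and the ratio of positive to input was 1.12 in retina and 2.53 in brain.

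Slc22a8, the organic anion transporter OAT3, had 50.2, 30.5 and 20.5 CPM in the retina libraries, against 212, 257 and 138 CPM in the brain libraries (log2 fold change -2.59 ± 0.33 SE, adjusted p = 8.88e-05). The groups did not overlap, and this transcript was concentrated by the pull-down in both tissues, 11.8-fold over input in retina and 16.2-fold in brain. C1qb, a subunit of complement C1q made by microglia, had 27.1, 134 and 164 CPM in the retina libraries, against 1161, 1341 and 1107 CPM in the brain libraries (log2 fold change -3.47 ± 0.53 SE, adjusted p = 0.000263). Retina library 421 was the lowest of the 6, and even the highest retina library was far under the lowest brain library. Its ratio over input was 16.9 in retina and 16.6 in brain.

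**Figure D2:**
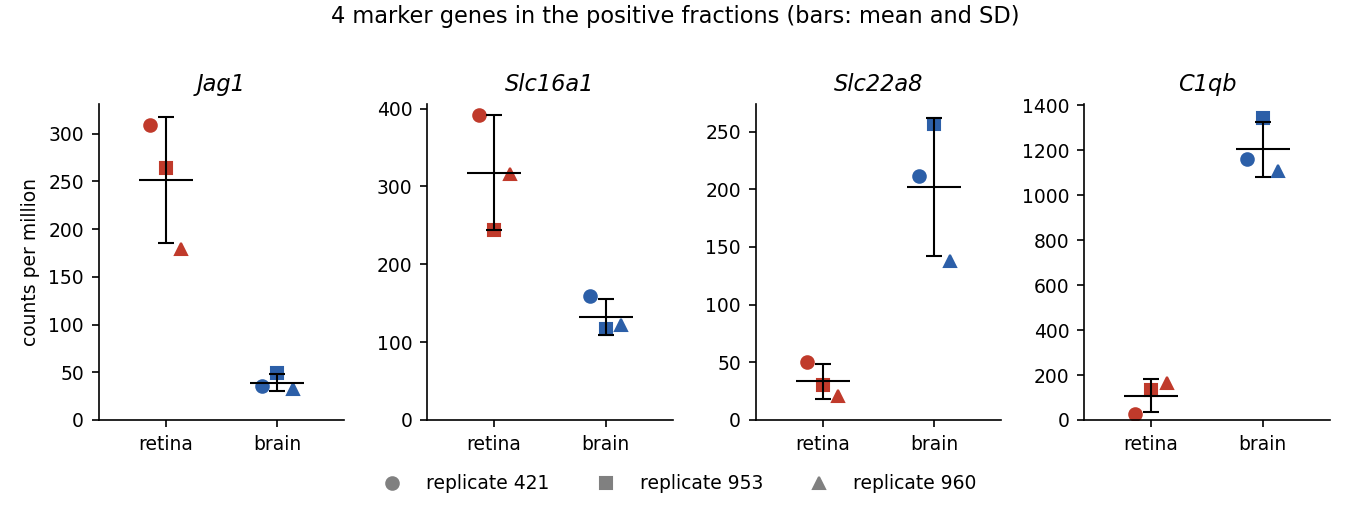
Level (CPM) of Jag1, Slc16a1, Slc22a8 and C1qb in each positive library, retina in red and brain in blue, with the symbol giving the replicate number and bars the mean and SD of 3 libraries. In each of the 4 genes the retina and brain libraries do not overlap.

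Genes that define endothelial cells were lower in the retina positive fraction or did not pass the test. Of 30 pan-endothelial genes 0 were called higher and 22 lower, against 34.4% and 34.0% of all genes. The median log2 fold change of the 30 was -1.13, against -0.01 over all genes. The summed level of the 30 was 3819 to 7012 CPM in retina and 7932 to 11572 CPM in brain. Sox18, an endothelial transcription factor, had 90.6, 84.9 and 69.6 CPM in the retina libraries, against 279, 459.5 and 307 CPM in the brain libraries (log2 fold change -2.10 ± 0.21 SE, adjusted p = 2.16e-05). Ramp2, part of the adrenomedullin receptor, had 102, 92.8 and 74.8 CPM in retina, against 348, 463 and 331 CPM in brain (log2 fold change -2.08 ± 0.19 SE, adjusted p = 1.00e-05). Both were at least 2-fold lower in every retina library than in any brain library. Icam2, an adhesion molecule of endothelium and leukocytes, changed by -1.65 on the log2 scale, Ecscr, an endothelial membrane protein, by -1.39, and Pecam1, a junction protein, by -0.99.

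Among the members not called were receptors of vessel growth. Flt1, a VEGF receptor, had 1012, 515 and 356 CPM in the retina libraries, against 1001, 1085 and 666 CPM in the brain libraries (log2 fold change -0.55 ± 0.35 SE, adjusted p = 0.186). Tek, the angiopoietin receptor Tie2, had a log2 fold change of -0.46 (adjusted p = 0.114) and Podxl, a sialomucin of the luminal surface, one of -0.38 (adjusted p = 0.103). In Flt1 the values of library 421 were alike in the 2 tissues, and the other 2 retina libraries were lower. Without retina library 421, these 3 genes were called lower, with log2 fold changes of -1.06 for Flt1, -0.65 for Tek and -0.57 for Podxl, and Tek also without brain library 960 (-0.62). Tek and Podxl were concentrated over input in both tissues, by 94.2-fold and 2.65-fold in retina against 48.5-fold and 38.1-fold in brain.

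Carriers of the blood-brain barrier that import fuel and amino acids mostly fell in retina, while a few transporters rose. In the list of glucose and monocarboxylate transport, 2 of 7 members were called higher and 4 lower, against 34.4% and 34.0% of all genes. The list's median was -0.81, against -1.13 for the pan-endothelial list. Slc2a1, the barrier glucose transporter GLUT1, had 1877, 1469 and 1194 CPM in the retina libraries, against 2473, 3377 and 2113 CPM in the brain libraries (log2 fold change -0.81 ± 0.24 SE, adjusted p = 0.0125). This call was lost without brain library 953 (log2 fold change -0.58, adjusted p = 0.0666) and without retina library 953 (-0.77, adjusted p = 0.0588). Bsg, basigin, the partner protein that takes MCT1 to the membrane, had 2405, 2167 and 2247 CPM in retina, against 4396, 5190.3 and 4125 CPM in brain (log2 fold change -1.01 ± 0.18 SE, adjusted p = 0.000801). In Bsg every retina library was under every brain library. Slc5a6, a sodium-dependent vitamin transporter, rose by a log2 fold change of 0.68, and Slc2a3, the neuronal glucose transporter GLUT3, was not called (-0.26, adjusted p = 0.181).

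Of the 6 organic anion carriers 5 were called lower in retina and 1 higher, against 34.0% and 34.4% of all genes. Slco2b1 had 99.1, 91.9 and 95.8 CPM in the retina libraries, against 309, 383 and 279 CPM in the brain libraries (log2 fold change -1.76 ± 0.16 SE, adjusted p = 9.47e-06), and Slco1c1, which carries thyroid hormone across the barrier, had 416, 233 and 113 CPM in retina, against 884, 1127 and 566 CPM in brain (log2 fold change -1.76 ± 0.42 SE, adjusted p = 0.00415). Slco1c1 varied by library in both tissues, highest in retina 421 and brain 953, and the count of 5 was 3 without retina library 960 or without brain library 421. The exception was Slco4a1, with 148, 154 and 129.7 CPM in the retina libraries, against 6.96, 7.54 and 8.003 CPM in the brain libraries (log2 fold change 4.26 ± 0.15 SE, adjusted p = 1.08e-07). It was near its input level in both tissues (0.874 and 1.01 times), unlike Slco2b1 (15.2 and 19.0 times).

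Of 19 amino acid and nutrient transporters 3 were called higher and 12 lower, against 34.4% and 34.0% of all genes. The list's median was -1.04, against -1.13 for the pan-endothelial list. Slc1a1, a glutamate transporter, had 39.1, 35.6 and 35.8 CPM in the retina libraries, against 129, 155 and 136 CPM in the brain libraries (log2 fold change -1.93 ± 0.13 SE, adjusted p = 2.52e-06). Slc38a5, a glutamine transporter, had 9.61, 20.2 and 39.0 CPM in retina, against 108, 123 and 142 CPM in brain (log2 fold change -2.41 ± 0.38 SE, adjusted p = 0.000342), and its log2 fold change was -3.05 without retina library 960, the highest of the 3. Mfsd2a, the carrier of lysophosphatidylcholine with omega-3 fatty acids, had 77.0, 37.0 and 23.8 CPM in retina, against 145, 206 and 128 CPM in brain (log2 fold change -1.81 ± 0.37 SE, adjusted p = 0.00172), and -2.40 without retina library 421. Slc39a8, a zinc and manganese importer, and Slc52a3, a riboflavin transporter, had log2 fold changes of -1.47 and -1.35. Slc7a5, the large neutral amino acid transporter LAT1, was not called (-0.70, adjusted p = 0.0562), and it was called lower without retina library 421 (-0.97) or without brain library 960 (-0.83). Slc38a3, a glutamine transporter also found in glia, had 761, 626 and 507 CPM in the retina libraries, against 195, 206 and 153 CPM in the brain libraries (log2 fold change 1.77 ± 0.20 SE, adjusted p = 3.55e-05), and Slc6a6, the taurine transporter, had a log2 fold change of 0.99. Slc38a3 and Slc6a6 were both concentrated over input in brain, by 2.45-fold and 9.07-fold, and hardly in retina, at 1.21 and 0.897 times.

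The ATP-binding cassette efflux pumps did not move together. Abcb1a, the barrier form of P-glycoprotein, had 772, 429.8 and 274 CPM in the retina libraries, against 774, 867 and 486 CPM in the brain libraries (log2 fold change -0.53 ± 0.35 SE, adjusted p = 0.202), and its retina and brain libraries overlapped. Abcg2, the breast cancer resistance protein, had 119, 92.1 and 63.4 CPM in the retina libraries, against 247, 317 and 188 CPM in the brain libraries (log2 fold change -1.46 ± 0.25 SE, adjusted p = 0.000615), below brain in every library. Abcc1 and Abcc5, both of the multidrug resistance protein family, rose by log2 fold changes of 1.79 and 1.27, and Abcc4 was not called (-0.74, adjusted p = 0.0548). Over the 6 pumps 2 were called higher and 1 lower, against 34.4% and 34.0% of all genes, and 3 were called lower without retina library 421 and 2 without brain library 960. Among the added calls were Abcb1a (-0.99) without retina library 421 and Abcc4 without retina library 421 (-1.22) or brain library 960 (-0.87).

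Of 15 tight junction genes 5 were called higher and 7 lower, against 34.4% and 34.0% of all genes. Cldn5, the main claudin of barrier endothelium, had 619.8, 487 and 472 CPM in the retina libraries, against 1477, 1641 and 1242 CPM in the brain libraries (log2 fold change -1.47, adjusted p = 8.75e-05). Every retina library was under every brain library. Lsr, the tricellular junction protein angulin-1, F11r, which encodes junctional adhesion molecule A, and Ildr2, another angulin, had log2 fold changes of -1.66, -1.83 and -1.41. Cgn, cingulin, a cytoplasmic junction protein, had 42.8, 39.7 and 31.4 CPM in the retina libraries, against 5.38, 4.57 and 4.06 CPM in the brain libraries (log2 fold change 3.01 ± 0.20 SE, adjusted p = 1.77e-06), while Tjp1, the scaffold ZO-1, was not called (0.24, adjusted p = 0.345). Cldn5 and Lsr were concentrated over input in retina by 107-fold and 20.4-fold, Cgn by 1.46-fold.

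Of 19 genes of barrier Wnt/beta-catenin signalling none was called higher (0) and 12 were called lower, against 34.4% and 34.0% of all genes. The list's median was -0.98. The pan-endothelial list had a median of -1.13. Without both libraries numbered 953, 5 of the Wnt genes were called lower. Apcdd1, a Wnt antagonist induced by the pathway, had 88.2, 60.6 and 59.0 CPM in the retina libraries, against 297, 355 and 218 CPM in the brain libraries (log2 fold change -2.07 ± 0.22 SE, adjusted p = 3.25e-05). Nkd1, another feedback inhibitor, had 47.3, 38.3 and 37.0 CPM in retina, against 168, 195 and 119 CPM in brain (log2 fold change -1.98 ± 0.20 SE, adjusted p = 2.14e-05). Both were lower in every retina library than in any brain library. Tspan12, a co-receptor for Norrin, had a log2 fold change of -0.98, and the forkhead factor Foxf2 one of -1.50. Gpr124, the Wnt7 co-receptor, was not called (-0.35, adjusted p = 0.196), and it was called lower without retina library 421 (-0.56).

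Of 16 Notch genes 6 were called higher and 7 lower, near the shares over all genes (34.4% and 34.0%), and Jag1 had the largest change of the 16. Among transcriptional targets of Notch, Hey1, Hes1 and Nrarp fell, with log2 fold changes of -1.17, -0.87 and -1.04, and Hey2 rose. Hey2 had 11.8, 12.8 and 14.3 CPM in the retina libraries, against 5.05, 6.17 and 5.95 CPM in the brain libraries (log2 fold change 1.19 ± 0.19 SE, adjusted p = 0.000359). Lfng and Mfng, glycosyltransferases that modify Notch receptors, had log2 fold changes of -1.62 and -1.19. The receptor Notch1 had 165, 104 and 59.9 CPM in retina, against 83.9, 95.9 and 61.6 CPM in brain and was not called (adjusted p = 0.235). It was highest in retina library 421, and without retina library 960 it was called higher (0.76).

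Artery and vein genes were lower more often than higher in retina. The arterial and the venous list each had a median of -0.80, against -1.13 for the pan-endothelial list. Of 18 arterial genes 1 was called higher and 11 lower, against 34.4% and 34.0% of all genes. The arterial counts were 7 lower without retina library 953 and 2 higher without retina library 960. Without both libraries numbered 953, 5 were called lower. Gkn3, which marks arterial endothelium of mouse brain, had 24.9, 38.3 and 20.9 CPM in the retina libraries, against 114, 147 and 72.2 CPM in the brain libraries (log2 fold change -1.996 ± 0.29 SE, adjusted p = 0.000198). Alpl, alkaline phosphatase, was the arterial gene called higher, with 441, 421 and 385 CPM in retina, against 142, 176 and 80.6 CPM in brain (log2 fold change 1.65 ± 0.25 SE, adjusted p = 0.000281), and its ratio over input was 1.17 in retina and 12.9 in brain. Sema3g, a semaphorin of arteries, was not called (-0.39, adjusted p = 0.216), and was called lower without retina library 421 (-0.76). Of 12 venous genes none was called higher (0) and 10 lower. Of 7 genes of fenestrated endothelium, a type without a barrier, none was called higher (0) and 6 were called lower. Icam1, a leukocyte adhesion molecule, had 15.1, 9.24 and 19.6 CPM in the retina libraries, against 55.0, 64.7 and 54.9 CPM in the brain libraries (log2 fold change -1.96 ± 0.23 SE, adjusted p = 5.70e-05). Tmem252 and the protease Ctsc had log2 fold changes of -1.71 and -2.06, while Vwf, von Willebrand factor, with 557, 424 and 544 CPM in retina, against 632, 517 and 614 CPM in brain, was not called (adjusted p = 0.287).

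Vegfa, the principal growth factor of vessels, had 328, 301 and 224 CPM in the retina libraries, against 28.8, 33.8 and 47.0 CPM in the brain libraries (log2 fold change 2.96 ± 0.22 SE, adjusted p = 4.06e-06), and in neither tissue was it concentrated by the pull-down to 2-fold (1.29 times input in retina, 0.450 times in brain). Its co-receptors Nrp1 and Nrp2 had log2 fold changes of -1.47 and -0.89. In the list of 10 tip cell and angiogenic genes measured, 2 were called higher and 4 lower (7 lower without retina library 421), against 34.4% and 34.0% of all genes. Downstream of BMP and TGF-beta receptors, Id1, an inhibitor of differentiation induced by BMP, had 125, 95.3 and 96.5 CPM in the retina libraries, against 476, 601 and 471 CPM in the brain libraries (log2 fold change -2.29 ± 0.18 SE, adjusted p = 4.69e-06). Id2 and Id3 changed alike, with log2 fold changes of -2.30 and -1.90, and the ligand Tgfb1 had 25.2, 30.3 and 27.4 CPM in retina, against 112, 138 and 94.7 CPM in brain (log2 fold change -2.05 ± 0.17 SE, adjusted p = 6.07e-06). Over the list 3 of 17 were called higher and 11 lower, and Ltbp4, a latent TGF-beta binding protein, was not called (-0.70, adjusted p = 0.0621), but was without retina library 421 (-0.94) or brain library 960 (-0.92). Of 20 transcription factors of barrier endothelium 1 was called higher and 16 lower, among them Gata2 with 63.2, 43.5 and 41.3 CPM in retina, against 162, 225 and 157 CPM in brain (log2 fold change -1.88 ± 0.21 SE, adjusted p = 3.96e-05). The median of these 20 was -0.93, against -1.13 for the pan-endothelial list, and 7 were called lower without both libraries numbered 953.

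Genes of lipid handling moved in both directions, 4 of 15 higher and 8 lower, and most basement membrane genes were not called. Over all genes 34.4% were called higher and 34.0% lower. Of the 14 basement membrane genes 2 were called higher and 2 lower. Leaving out 1 library gave 1 higher (without retina or brain library 421), 4 higher (without retina library 960) or 0 higher (without brain library 960), and 4 lower without retina library 421. Vldlr, a lipoprotein receptor, had 332, 303 and 296 CPM in the retina libraries, against 35.2, 31.3 and 43.2 CPM in the brain libraries (log2 fold change 3.09 ± 0.16 SE, adjusted p = 5.57e-07), and at 0.729 and 0.459 times input it was not concentrated in either tissue. Cav1, the coat protein of caveolae, had 100.5, 107 and 115 CPM in retina, against 276, 373 and 245 CPM in brain (log2 fold change -1.47 ± 0.18 SE, adjusted p = 6.22e-05), Prkcdbp (cavin-3) a log2 fold change of -1.71 and Fabp5, a fatty acid binding protein, one of -1.71. Sdpr (cavin-2) was not called (-0.53, adjusted p = 0.113), and was called lower without retina library 421 (-0.86). Sparc, a matrix glycoprotein, had 413, 455 and 421 CPM in the retina libraries, against 1792, 2301 and 1703 CPM in the brain libraries (log2 fold change -2.17 ± 0.18 SE, adjusted p = 6.80e-06), and its relative Sparcl1 a log2 fold change of -1.25. The laminin Lama5 had 175, 76.3 and 50.6 CPM in retina, against 43.3, 48.5 and 32.0 CPM in brain (log2 fold change 1.28, adjusted p = 0.0135), and without retina library 421, its highest library, the log2 fold change was 0.63. Without brain library 960 the Lama5 call was lost (1.15, adjusted p = 0.0512).

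The integrin Itga4 rose, with 87.6, 102 and 77.7 CPM in the retina libraries, against 13.3, 16.2 and 14.7 CPM in the brain libraries (log2 fold change 2.60 ± 0.16 SE, adjusted p = 1.11e-06), and Itgb5 fell, with 62.1, 106 and 124 CPM in retina, against 586, 681 and 517 CPM in brain (log2 fold change -2.61 ± 0.25 SE, adjusted p = 1.67e-05). The guidance ligands Sema3f and Slit2 had log2 fold changes of 3.70 and 3.75, and in both genes every retina library was above every brain library. Over 22 guidance genes 3 were called higher and 9 lower (14 lower without retina library 421), against 34.4% and 34.0% of all genes. Klf2 and Klf4, transcription factors induced by laminar flow, had log2 fold changes of -1.85 and -1.56, and Thbd, the anticoagulant receptor thrombomodulin, one of -1.43. Klf2 had 197, 145 and 139.6 CPM in retina, against 571, 669 and 498 CPM in brain, and every retina library was under every brain library.

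Surface and immune genes of endothelium were the lists lowest in retina among those of endothelial function. Car4, a membrane-bound carbonic anhydrase of barrier capillaries, had 35.3, 27.2 and 12.5 CPM in the retina libraries, against 288, 362 and 169 CPM in the brain libraries (log2 fold change -3.47 ± 0.39 SE, adjusted p = 4.11e-05). This is -2.34 log2 units from the median of the pan-endothelial list, the furthest of all endothelial-list members below it. Among Ly6 and other surface proteins 12 of 14 were called lower and 1, Vtn, higher, against 34.0% and 34.4% of all genes. The list's median was -1.57. Ly6c1, a surface protein of brain endothelium in mouse, had 278, 254 and 259.6 CPM in retina, against 963, 1244 and 1097 CPM in brain (log2 fold change -2.06 ± 0.16 SE, adjusted p = 5.22e-06), and Ly6e and Ly6h, of the same family, log2 fold changes of -1.91 and -2.22. Spock2, a proteoglycan, was not called (-0.40, adjusted p = 0.257), but was called lower without retina library 421 (-0.76). The GIMAP GTPases of lymphocytes and endothelium were lower in 4 of 4 members, Gimap6 with 66.3, 53.6 and 48.7 CPM in retina, against 253, 301 and 223 CPM in brain (log2 fold change -2.21 ± 0.17 SE, adjusted p = 5.07e-06) and Gimap1 with a log2 fold change of -1.83.

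Of 15 genes of MHC class I and antigen processing 14 were called lower and none higher (0), against 34.0% and 34.4% of all genes. The list's median was -1.47. H2-T23, a non-classical class I molecule, had 78.3, 70.5 and 68.8 CPM in the retina libraries, against 284, 301 and 247 CPM in the brain libraries (log2 fold change -1.94 ± 0.14 SE, adjusted p = 3.36e-06). The immunoproteasome subunits Psmb8, Psmb9 and Psmb10 had log2 fold changes of -1.99, -2.01 and -2.17, and B2m, the class I light chain, had 269, 304 and 308 CPM in retina, against 981, 1068 and 847 CPM in brain (log2 fold change -1.72 ± 0.16 SE, adjusted p = 1.36e-05). Of 21 interferon-response genes 18 were called lower and 1 higher, with a median of -1.44. Isg15, a ubiquitin-like protein induced by interferon, had 10.4, 8.90 and 11.3 CPM in the retina libraries, against 64.3, 51.0 and 51.2 CPM in the brain libraries (log2 fold change -2.43 ± 0.17 SE, adjusted p = 2.56e-06). Ifitm2, a membrane protein that restricts viral entry, had 33.7, 25.5 and 41.6 CPM in retina, against 126, 162 and 189 CPM in brain (log2 fold change -2.23 ± 0.21 SE, adjusted p = 1.52e-05), and its relative Ifitm3 a log2 fold change of -1.96. In Isg15 and Ifitm2 the retina libraries were within 2-fold of each other and all under the brain libraries. Microglia also express class I and interferon genes, and their markers were lower in retina too. The part of this in the class I and interferon results was not tested.

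The promoters of Isg15 and Ifitm2 are shown because the interferon list moved together. The windows are the 250 bases before the RefSeq start (GRCm38.p6), written 5′ to 3′ on the gene's strand, with matches to GAAA, any 2 bases and GAAA again on either strand, a form of the interferon-stimulated response element, in capitals. Isg15 lies at chr4:156200819-156201068 (minus strand), with 3 matches that overlap, and Ifitm2 at chr7:140955962-140956211 (minus strand), with 1 match.
Isg15: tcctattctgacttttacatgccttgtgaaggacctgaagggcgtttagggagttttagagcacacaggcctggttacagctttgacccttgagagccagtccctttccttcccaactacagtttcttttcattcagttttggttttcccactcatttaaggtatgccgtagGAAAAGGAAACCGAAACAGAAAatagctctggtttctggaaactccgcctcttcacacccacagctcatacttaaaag
Ifitm2: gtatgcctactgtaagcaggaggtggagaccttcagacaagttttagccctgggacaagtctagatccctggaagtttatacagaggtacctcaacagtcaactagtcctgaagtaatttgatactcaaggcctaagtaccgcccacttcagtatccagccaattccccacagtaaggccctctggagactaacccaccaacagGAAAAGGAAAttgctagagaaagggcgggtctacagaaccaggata
This motif was in 10 of 21 promoter windows of the interferon list (17 of its 21 measured genes had a window) and in 2.98% of all 32536 windows of the same length. A match describes the letters only.

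**Figure D3:**
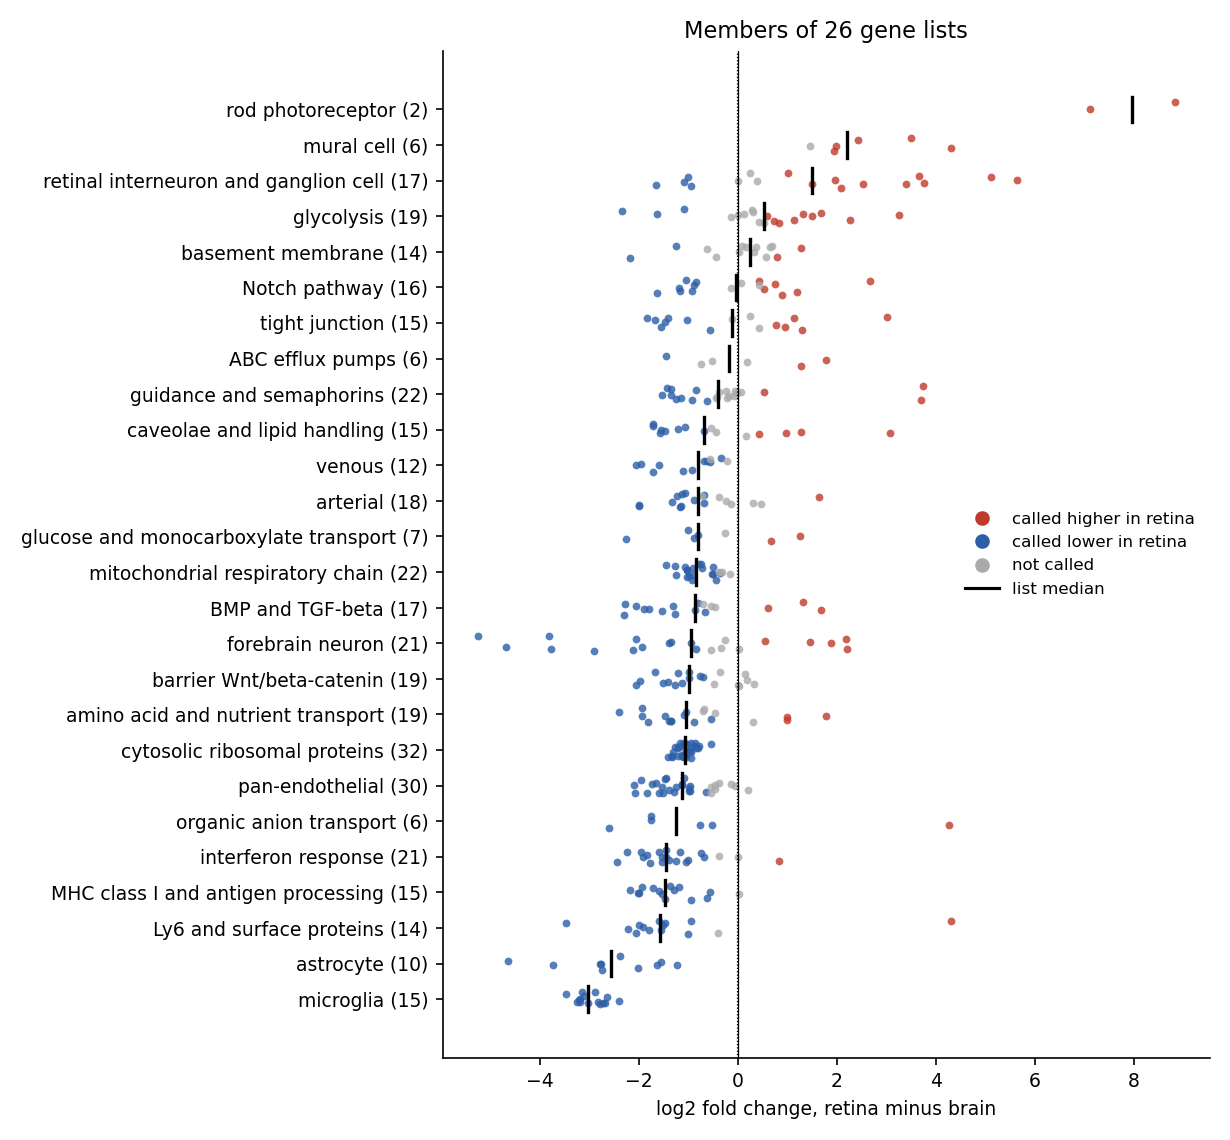
Log2 fold change (retina minus brain) of each measured member of 26 gene lists, 1 row per list with the number of members in brackets, red for genes called higher in retina, blue for lower and grey for not called, with a black bar at the list's median and a dotted line at the median of all genes. The list of microglia has the lowest median (-3.02) and that of pan-endothelial genes has a median of -1.13, against -0.01 over all genes.

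Microglial genes made up the list with the lowest median of the 44. All 15 measured members were called lower in retina, against 34.0% of all genes, with a median of -3.02. The summed level of the 15 was 389.8 to 1770.3 CPM in retina and 8355 to 11206 CPM in brain. C1qa, another chain of C1q, had 38.4, 140.2 and 178 CPM in retina, against 1061, 1206 and 986 CPM in brain (log2 fold change -3.18 ± 0.46 SE, adjusted p = 0.000186), and the chain C1qc had a log2 fold change of -3.20. Cx3cr1, the fractalkine receptor, had 24.9, 93.5 and 101 CPM in the retina libraries, against 612, 682 and 488 CPM in the brain libraries (log2 fold change -3.02 ± 0.43 SE, adjusted p = 0.000187), and Tmem119, a microglial surface protein, had 10.1, 56.5 and 57.8 CPM in retina, against 358, 442 and 301 CPM in brain (log2 fold change -3.14 ± 0.50 SE, adjusted p = 0.00037). In each of these retina library 421 was the lowest, and all 3 were under every brain library. Without retina library 421 the median of the list was -2.59.

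Other genes of the lineage were lower as well. Csf1r, the receptor that microglia and macrophages need to survive, had 34.7, 145 and 178 CPM in the retina libraries, against 1009, 1217 and 848 CPM in the brain libraries (log2 fold change -3.10 ± 0.49 SE, adjusted p = 0.000336). Siglech, Tyrobp, Laptm5 and Selplg, of microglia and other myeloid cells, had log2 fold changes of -2.89, -2.65, -3.18 and -3.24, and Itgam (CD11b), Fcgr3, Rgs10 and Lag3 of -2.97, -3.30, -3.07 and -4.24. Of 5 genes of perivascular macrophages and MHC class II, 4 were called lower, among them Cd74, the invariant chain, with 11.03, 30.8 and 42.7 CPM in retina, against 160.1, 143 and 105 CPM in brain, Lyz2, lysozyme, with 36.5, 80.6 and 124 CPM in retina, against 351, 341 and 318 CPM in brain, and Apoe, apolipoprotein E, with 415, 771 and 1165 CPM in retina, against 3162, 3584 and 3459 CPM in brain. The leukocyte genes Coro1a and Lcp1 had log2 fold changes of -2.93 and -2.32. The microglial genes listed in each table (15 in retina and 22 in brain) took 0.0370 to 0.166% of counts in retina positive libraries and 0.905 to 1.17% in brain positive libraries, against 0.00876 to 0.00969% in retina inputs and 0.0771 to 0.118% in brain inputs. They were therefore concentrated by the pull-down in both tissues.

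The C1qb and C1qc promoters, neighbours in 1 gene cluster, are shown because the C1q genes were among the lowest in retina. Matches to AGGAAGT on either strand, a core of the sites bound by PU.1, the ETS factor of myeloid cells, are in capitals. Other ETS factors bind similar letters. The windows are the 250 bases before the RefSeq start in GRCm38.p6, at chr4:136886201-136886450 for C1qb and chr4:136892915-136893164 for C1qc, both on the minus strand and with 1 match each.
C1qb: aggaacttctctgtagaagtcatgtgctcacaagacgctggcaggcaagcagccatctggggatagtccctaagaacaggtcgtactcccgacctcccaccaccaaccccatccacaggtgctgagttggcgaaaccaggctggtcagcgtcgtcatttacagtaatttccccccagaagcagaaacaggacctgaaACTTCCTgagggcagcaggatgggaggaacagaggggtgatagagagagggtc
C1qc: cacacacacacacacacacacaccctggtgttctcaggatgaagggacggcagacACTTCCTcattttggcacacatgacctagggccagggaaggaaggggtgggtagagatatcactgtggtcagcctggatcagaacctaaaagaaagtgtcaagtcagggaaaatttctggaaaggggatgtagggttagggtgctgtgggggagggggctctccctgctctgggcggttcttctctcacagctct
The motif was in 3 of 9 windows of the microglial list (9 of its 15 measured genes had a window) and in 7.7% of all windows.

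The genes furthest above brain were mostly rod photoreceptor genes. Grk1, the rhodopsin kinase, had 2722, 3701 and 3852 CPM in the retina libraries, against 3.99, 4.51 and 4.86 CPM in the brain libraries (log2 fold change 9.59 ± 0.28 SE, adjusted p = 7.46e-08). Abca4, the retinoid transporter of photoreceptor discs, had 1431, 1304 and 1115 CPM in retina, against 1.50, 3.20 and 3.81 CPM in brain (log2 fold change 8.83 ± 0.37 SE, adjusted p = 1.64e-07), and Rom1, a disc rim protein, had 1583, 2298 and 2892 CPM in retina, against 16.1, 17.3 and 15.5 CPM in brain (log2 fold change 7.11 ± 0.29 SE, adjusted p = 1.44e-07). In all 3 genes the lowest retina library was far above the highest brain library. The other 9 of the 12 highest genes were Samd11, Kcnj14, Reep6, Mpp4, Rnf207, Gm11744, Fam161a, Rgs9 and Unc119, with log2 fold changes of 8.87, 7.76, 7.67, 7.11, 7.08, 7.03, 6.33, 6.33 and 6.24. Among them Rgs9 speeds the end of the light response and Unc119 carries transducin. These 12 had ratios over input in retina of 0.709 to 2.09, and Rnf207 was the only one of them over 2.

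Of 23 rod genes on the list all were in the retina table and 2, Abca4 and Rom1, in the brain table as well. The rod genes listed in each table (23 in retina and 2 in brain) took 4.25 to 6.63% of counts in retina positive libraries, 6.69 to 7.08% in retina inputs and 0.00170 to 0.00192% in brain positive libraries. Within the retina positive libraries the share was lowest in 421 and highest in 960, the opposite order to the endothelial list. Of 12 cone genes, 12 were in the retina table and 1, Gngt2, in the brain table as well. The cone genes listed in retina took 0.167 to 0.249% of counts in retina positive libraries and 0.228 to 0.244% in retina inputs. The 1 listed in brain took 0.00491 to 0.00563% in brain positive libraries. Gngt2 alone therefore does not describe the cone list. Gngt2, the cone transducin gamma subunit, fell, with 24.1, 24.3 and 30.9 CPM in the retina libraries, against 50.9, 59.8 and 53.7 CPM in the brain libraries (log2 fold change -1.04 ± 0.15 SE, adjusted p = 0.000196), at 0.463 times input in retina and 13.99 times in brain. The part of rod RNA in the fold changes of other genes was not tested.

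The promoters of Abca4 and Mpp4, 2 of the 12 highest genes, are shown with matches to TAATCC on either strand in capitals, the core letters bound by the photoreceptor homeobox factor CRX and by other OTX proteins. The windows are again the 250 bases before a RefSeq start in GRCm38.p6, chr3:122044210-122044459 (plus strand) for Abca4 and chr1:59161637-59161886 (minus strand) for Mpp4, whose window belongs to 1 of its 2 starts in the table.
Abca4: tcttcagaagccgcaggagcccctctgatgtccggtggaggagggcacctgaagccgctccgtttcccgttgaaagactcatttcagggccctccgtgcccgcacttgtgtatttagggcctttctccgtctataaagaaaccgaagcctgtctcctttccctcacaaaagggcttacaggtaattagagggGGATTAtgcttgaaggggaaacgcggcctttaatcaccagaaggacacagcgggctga
Mpp4: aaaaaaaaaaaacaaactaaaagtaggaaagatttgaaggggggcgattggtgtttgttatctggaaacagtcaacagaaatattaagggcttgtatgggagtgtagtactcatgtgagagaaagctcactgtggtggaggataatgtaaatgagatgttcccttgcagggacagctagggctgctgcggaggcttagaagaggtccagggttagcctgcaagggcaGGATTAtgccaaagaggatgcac
The motif was in 4 of 12 windows of these 12 genes (8 had a window), those of Abca4, Mpp4, Samd11 and Unc119, and in 6.25% of all windows.

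**Figure D4:**
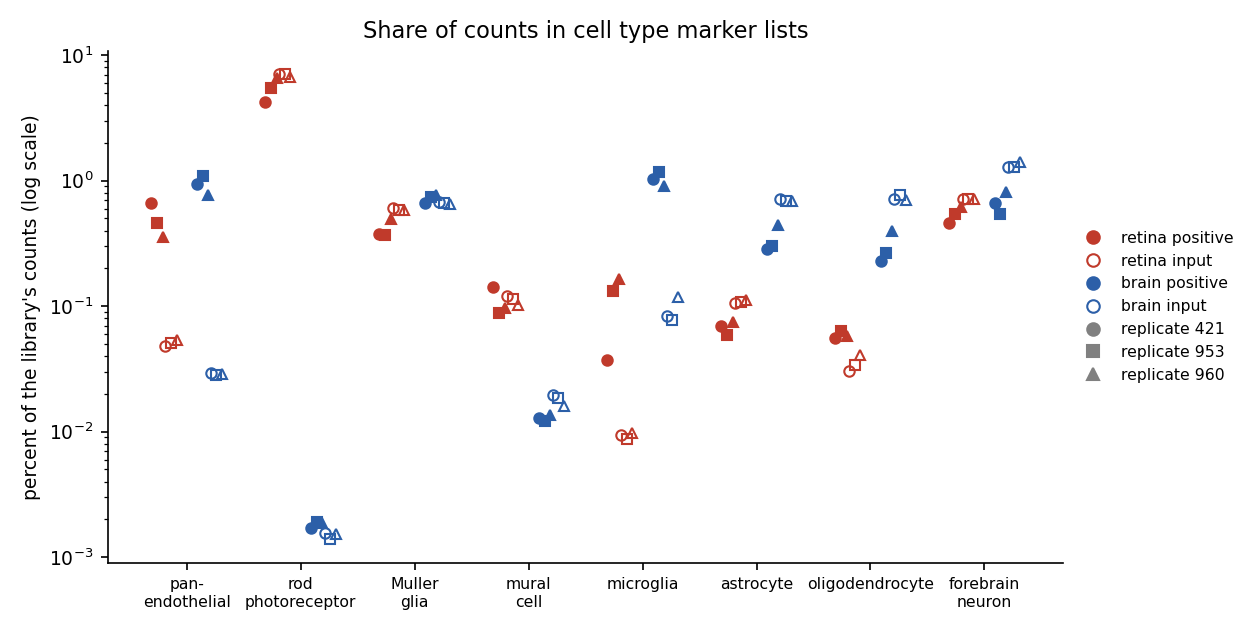
Share of each library's listed counts (percent, log scale) in 8 cell type marker lists, each summed over the members listed in that tissue's table, with filled symbols for positive and open symbols for input libraries, red for retina and blue for brain. Listed rod genes (23 in retina and 2 in brain) take over 4% in every retina library and under 0.01% in every brain library, and endothelial and microglial lists are higher in positive than in input libraries of both tissues.

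Many genes of the inner retina were also higher. Of 17 measured genes of retinal interneurons and ganglion cells 10 were called higher and 4 lower, against 34.4% and 34.0% of all genes. Another 3 were not called. The log2 fold changes of these 17 ran from -1.65 to 5.65, with a median of 1.51. The members named next are among the highest. Otx2, a homeobox factor of photoreceptors and bipolar cells, had 158, 173 and 179.8 CPM in the retina libraries, against 3.59, 3.31 and 3.23 CPM in the brain libraries (log2 fold change 5.65 ± 0.15 SE, adjusted p = 6.56e-08), Isl1, of bipolar, amacrine and ganglion cells, a log2 fold change of 5.13, and Pax6 one of 3.76. Müller glia, the radial glia of the retina, share many genes with astrocytes, and of their 12 measured genes 4 were called higher and 5 lower, not far from the shares over all genes. The median of these 12 was -0.23, with log2 fold changes from -2.12 (Apoe, called lower) to 4.68 (Abca8a). Rlbp1, the retinaldehyde binding protein of Müller glia and pigment epithelium, had 183, 196 and 295 CPM in retina, against 8.39, 12.2 and 13.7 CPM in brain (log2 fold change 4.30 ± 0.26 SE, adjusted p = 1.02e-06), and Abca8a and Dkk3 had log2 fold changes of 4.68 and 2.15. Glul, glutamine synthetase, with 2021, 1562 and 1943 CPM in retina, against 2231, 2576 and 2564 CPM in brain, was not called (adjusted p = 0.0634), and was called lower without retina library 421 (-0.47).

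The genes furthest below brain were mostly those of forebrain neurons, myelin and astrocytes. Ddn, dendrin, a protein of forebrain dendrites, had 5.04, 7.53 and 3.57 CPM in the retina libraries, against 534, 492 and 682 CPM in the brain libraries (log2 fold change -6.77 ± 0.29 SE, adjusted p = 1.80e-07). Nrgn, neurogranin, a postsynaptic calmodulin-binding protein, had 15.9, 22.9 and 15.1 CPM in retina, against 634, 529 and 874 CPM in brain (log2 fold change -5.25 ± 0.27 SE, adjusted p = 4.83e-07), and Sst, somatostatin, had 1.89, 4.79 and 4.53 CPM in retina, against 138, 108 and 128 CPM in brain (log2 fold change -5.03 ± 0.26 SE, adjusted p = 5.47e-07). Camk2a, the alpha subunit of a synaptic kinase, Kcnf1, Scn4b and Arpp21 had log2 fold changes of -4.68, -4.57, -4.56 and -4.26, and 2010300C02Rik, an unnamed gene, one of -4.95. The neuronal nuclear protein Rbfox3 (NeuN) and the striatal phosphatase inhibitor Ppp1r1b had log2 fold changes of -2.90 and -3.77. Of the 21 forebrain neuron genes measured, 5 were called higher and 12 lower, against 34.4% and 34.0% of all genes. The log2 fold changes of these 21 ran from -5.25 to 2.20 with a median of -0.95, so the list moved in both directions. All of the neuronal genes named here were at 0.712 times input or less in the brain pull-down.

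Myelin genes fell too. Mbp, myelin basic protein, had 27.4, 39.5 and 44.2 CPM in the retina libraries, against 475, 584 and 1143 CPM in the brain libraries (log2 fold change -4.30 ± 0.36 SE, adjusted p = 6.54e-06), and Cnp, a phosphodiesterase of myelin, had a log2 fold change of -2.99. Brain library 960 was the highest of the 3 brain libraries in both. Of 8 oligodendrocyte genes measured 7 were called lower and none higher (0). Of 10 astrocyte genes measured all 10 were called lower, with a median of -2.56. S100b, a calcium-binding protein of astrocytes, had 7.56, 6.50 and 7.82 CPM in retina, against 145, 174 and 229.7 CPM in brain (log2 fold change -4.64 ± 0.22 SE, adjusted p = 2.67e-07), the intermediate filament Gfap 25.2, 17.1 and 31.5 CPM in retina, against 157, 165 and 193 CPM in brain (log2 fold change -2.79 ± 0.21 SE, adjusted p = 4.22e-06), and Aldh1l1 and Fgfr3 log2 fold changes of -2.74 and -2.76. Ttr, transthyretin, which the choroid plexus secretes, and Ptgds, a prostaglandin synthase of leptomeninges, had log2 fold changes of -3.98 and -3.51. The Ttr value was -3.35 without brain library 960. Their lists did not fall as a whole. Of 6 measured genes of choroid plexus and ependyma 4 were called higher and 1, Ttr, lower, with a median of 1.39. Of 6 measured fibroblast genes 2 were called higher and 1, Ptgds, lower, with a median of -0.14. Over all genes 34.4% were called higher and 34.0% lower. The astrocyte genes listed in each table (10 in retina and 15 in brain) took 0.0588 to 0.0752% of counts in retina positive libraries and 0.284 to 0.446% in brain positive libraries, against 0.106 to 0.112% in retina inputs and 0.686 to 0.708% in brain inputs. In both tissues they took less of the positive than of the input libraries.

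Mural cell genes listed in both tissues were higher in retina, and 2 of the 5 calls rested on a single library. Of the 16 genes on the list 6 were measured in both, 5 were listed in brain alone and 1 in retina alone. Rgs5, a marker of pericytes, had 310.3, 27.6 and 9.36 CPM in the retina libraries, against 11.4, 8.57 and 10.4 CPM in the brain libraries (log2 fold change 3.50 ± 1.02 SE, adjusted p = 0.0117), and Pdgfrb, the pericyte receptor for PDGF-B, had 67.4, 10.95 and 8.59 CPM in retina, against 6.45, 6.80 and 9.18 CPM in brain (log2 fold change 1.94 ± 0.66 SE, adjusted p = 0.0248). Retina libraries 953 and 960 were far under retina library 421 in both genes, and in Rgs5 and Pdgfrb retina library 960 lay within the range of the brain libraries. Without retina library 421 the log2 fold changes were 0.83 for Rgs5 (adjusted p = 0.0682) and 0.38 for Pdgfrb (adjusted p = 0.191), and 3 of 6 genes of the list were called. The Pdgfrb call was also lost without brain library 421 (1.84, adjusted p = 0.0538) or brain library 953 (1.90, adjusted p = 0.0728). The other 3 calls held without retina library 421. Vtn, vitronectin, had 773, 685 and 857 CPM in retina, against 36.6, 34.1 and 45.4 CPM in brain (log2 fold change 4.32 ± 0.19 SE, adjusted p = 1.93e-07), Cox4i2, a hypoxia-regulated subunit of cytochrome oxidase in pericytes, had 12.1, 15.6 and 24.7 CPM in retina, against 2.75, 3.09 and 3.94 CPM in brain (log2 fold change 2.44 ± 0.29 SE, adjusted p = 5.77e-05), and Mylk, myosin light chain kinase, a log2 fold change of 1.98. Vtn, which photoreceptors also express in mouse, was at 0.786 times input in retina, against 11.9 times for Rgs5. Cox4i2 was at 0.677 times input in retina, so neither it nor Vtn was concentrated by the retina pull-down.

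Genes of glycolysis were higher more often than lower, and those of the respiratory chain fell. Of 19 glycolytic genes 9 were called higher and 3 lower, against 34.4% and 34.0% of all genes, with a median of 0.53. Hk2, a hexokinase expressed in photoreceptors, had 548, 462 and 486 CPM in the retina libraries, against 53.8, 58.0 and 45.3 CPM in the brain libraries (log2 fold change 3.25 ± 0.16 SE, adjusted p = 4.28e-07), Hk1 and Pfkp had log2 fold changes of 1.67 and 1.51, and Slc16a3, the lactate exporter MCT4, had 40.3, 48.6 and 77.9 CPM in retina, against 10.2, 10.2 and 14.5 CPM in brain (log2 fold change 2.26 ± 0.26 SE, adjusted p = 4.66e-05). Hk2 was at 0.666 times input in retina and 5.94 times in brain. Ldhb, the lactate dehydrogenase subunit B, had 82.7, 87.5 and 190.0 CPM in retina, against 571, 545 and 724 CPM in brain (log2 fold change -2.35 ± 0.31 SE, adjusted p = 0.000118). Pkm and Aldoa were not called (0.53 and 0.44, adjusted p = 0.055 and 0.0869), but both were called higher without retina library 421 (0.66 and 0.61), and Pkm also without retina library 953 (0.67). Of 22 nuclear-encoded respiratory chain genes 19 were called lower and none higher (0), with a median of -0.84. Sdhb, of complex II, had 47.4, 47.9 and 56.4 CPM in retina, against 139, 135 and 139 CPM in brain (log2 fold change -1.44 ± 0.13 SE, adjusted p = 9.99e-06), and Cox5a, of complex IV, a log2 fold change of -1.26.

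Cytosolic ribosomal proteins were called lower in 32 of 32 measured genes, against 34.0% of all genes, with log2 fold changes from -1.41 to -0.54. Rpsa had 228, 219 and 274 CPM in the retina libraries, against 646, 662 and 615 CPM in the brain libraries (log2 fold change -1.41 ± 0.15 SE, adjusted p = 3.09e-05), and Rps19 and Rplp1 had log2 fold changes of -1.31 and -1.33. Rpl10a, the protein that carries the tag, changed least of the 32, with 447, 408 and 403 CPM in retina, against 617, 682 and 524 CPM in brain (log2 fold change -0.54 ± 0.16 SE, adjusted p = 0.012), and its call was lost without retina library 953 (-0.50, adjusted p = 0.0549), brain library 421 (-0.52, adjusted p = 0.0509) or brain library 953 (-0.43, adjusted p = 0.061). These genes have short transcripts, with a median of 1199 bases, and across 11543 genes the log2 fold change increased with transcript length (Pearson r = 0.26, a description across genes). The median log2 fold change was -0.45 in the fifth of genes with the shortest transcripts and 0.52 in the fifth with the longest. The retina and brain inputs differed with length as well (r = 0.21), and the part of length in the ribosomal and respiratory chain results was not tested.

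Immediate early and stress genes were called lower in 20 of 24 measured members and higher in 3, against 34.0% and 34.4% of all genes. Egr1 had 28.8, 28.4 and 18.6 CPM in the retina libraries, against 148, 114 and 157 CPM in the brain libraries (log2 fold change -2.48 ± 0.20 SE, adjusted p = 6.09e-06), Junb a log2 fold change of -1.70 and Cdkn1a, the cell cycle inhibitor p21, one of -2.19. Sgk1, a kinase induced by glucocorticoids, rose, with 379.9, 379 and 402 CPM in retina, against 128, 127 and 137 CPM in brain (log2 fold change 1.56 ± 0.13 SE, adjusted p = 6.58e-06). Of 11 iron genes 4 were called higher and 4 lower, near the shares over all genes. Fth1 and Ftl1, the ferritin chains, had log2 fold changes of -1.90 and -1.66, and Trf, transferrin, one of -2.41, while the metalloreductase Steap2 rose (2.33). The cyclins Ccnd1 and Ccnd3 had log2 fold changes of -1.50 and -1.40, with 38.0, 47.2 and 48.4 CPM in retina, against 110.0, 142 and 125 CPM in brain for Ccnd1.

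Genes called higher in retina and genes called lower differed in their ratio of positive to input. Of the 2221 genes higher by 2-fold or more, 129 (5.81%) had a mean retina positive level of at least 2 times the retina input. Of the 1884 genes lower by 2-fold or more, 654 (34.7%) had a mean brain positive level of at least 2 times the brain input. Over all genes tested the shares were 9.08% in retina and 12.6% in brain. The ratios share the positive libraries with the fold changes and are given as a description, with no test.

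Among genes higher in retina that also reached that ratio, Rnf207 was the furthest and Xist the next. Xist, a non-coding RNA of the nucleus that silences an X chromosome, had 4889, 4111 and 1241 CPM in the retina libraries, against 64.4, 59.7 and 99.3 CPM in the brain libraries (log2 fold change 5.52 ± 0.52 SE, adjusted p = 1.33e-05), at 2.61 times input in retina and 0.234 times in brain. Retina library 960 was the lowest of the 3 and still above all brain libraries. Col20a1, Col11a1, Col6a1 and Col5a1, which encode collagen chains, had log2 fold changes of 4.37, 3.54, 3.28 and 3.15, each highest in retina library 421. Col6a1 had 248, 121 and 56.9 CPM in retina, against 13.4, 15.9 and 14.3 CPM in brain, and without retina library 421 the values were 2.62 for Col6a1 and 2.46 for Col5a1. Col6a2 had a log2 fold change of 1.93, and 1.23 without retina library 421. Pnpla3, a lipase of lipid droplets, had 198, 304 and 194 CPM in retina, against 10.1, 10.8 and 13.7 CPM in brain (log2 fold change 4.33 ± 0.23 SE, adjusted p = 5.57e-07), and Rgs11, Leng8 and Tnks had log2 fold changes of 4.35, 3.20 and 3.63. Among genes lower in retina with that ratio in brain, Lag3 was first, Fmo2, a flavin monooxygenase, second with 9.29, 14.9 and 5.79 CPM in the retina libraries, against 115, 154 and 74.7 CPM in the brain libraries (log2 fold change -3.56 ± 0.36 SE, adjusted p = 2.03e-05), and C1qb and Car4 next.

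**Figure D5:**
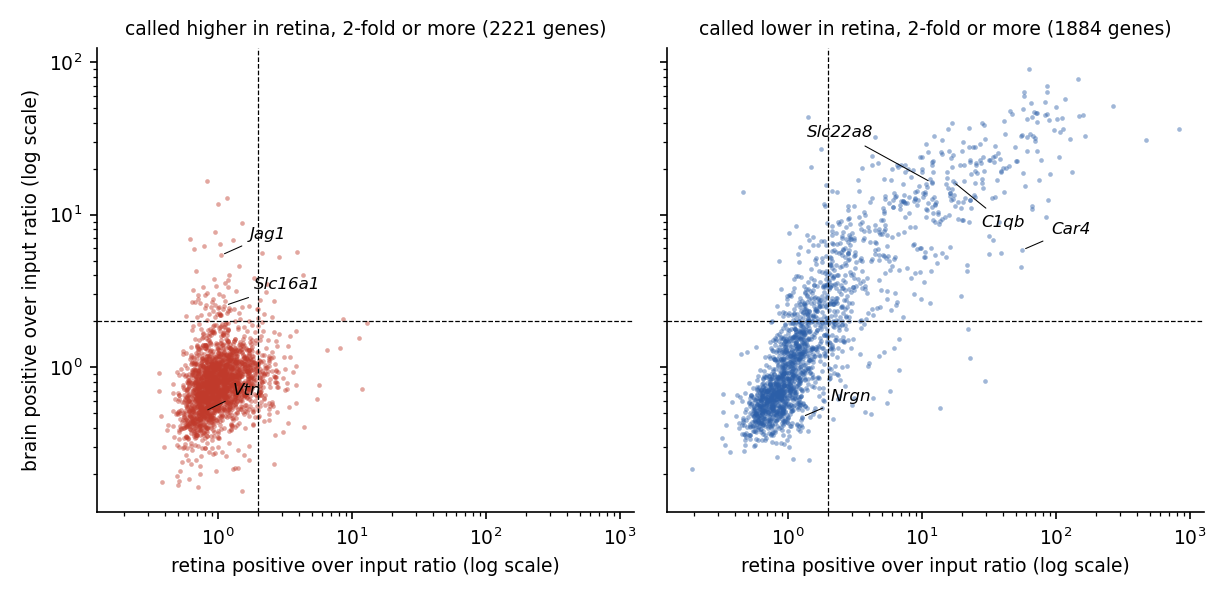
Ratio of mean positive to mean input level in retina (horizontal, log scale) and in brain (vertical, log scale) for the 2221 genes called higher in retina by 2-fold or more (left, red) and the 1884 called lower (right, blue), with dashed lines at 2. Genes higher in retina gather near a ratio of 1 in both tissues (medians 0.970 in retina and 0.778 in brain), while genes lower in retina have medians of 1.19 in both tissues and reach further above 2.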

How the data were processed

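RNA of positive fractions was sequenced from 3 retina and 3 brain samples. The values used are expected counts per gene, as deposited by the authors with no scaling. Their tables hold genes whose values reached 50 in all libraries of the positive fraction, the input or both, per the file headers, so genes under that limit are not in the joined set. The submitters' processing notes name DESeq and mm10. The aligner, the counter and the strand setting were not given in those sources. The deposited log2 normalised columns were not used. The expected counts were rounded, the tables joined on gene ID, and 11618 genes tested with edgeR 4.0.16 (quasi-likelihood, TMM scaling, R 4.3.3; filterByExpr removed 0 genes), with tissue as the sole term and Benjamini-Hochberg adjustment. Gene levels are CPM scaled over the 6 libraries. Fold changes of the text are log2, with the SE of the fit, and levels of different genes are not compared because CPM is not per length. Ratios of positive to input use CPM scaled within each tissue table.

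On simulated counts for this comparison (11618 genes), 80% of 100 genes changed 2-fold and 100% of 100 genes changed 4-fold were recovered, with 18 false calls. No other genes were changed, and these moved up and down in equal number, while 68.4% of genes were called in the data. The simulation therefore does not cover a comparison with that many differences. Alternatives were DESeq2 1.42.0, limma-voom (limma 3.58.1), other scalings and filters, a replicate block, and leaving out libraries. The text names the 4 markers, the 12 highest and 12 lowest called genes of at least 10 CPM without overlap, the 15 highest and 15 lowest of these with a positive level at least 2 times input, and, per list, the 4 called members of smallest adjusted p and up to 2 abundant uncalled members, not all of which are named or reported here. B2m, Cldn5, Hes1, Hey1, Ldhb, Mfsd2a, Nrarp, Pdgfrb, Pecam1, Rpl10a, Slc2a1, Slc38a5, Slc6a6 and the genes listed in a single table were named after their values were seen. The members, the 44 gene lists and the tests were chosen with earlier results of these data known. Promoters are from RefSeq (GRCm38.p6), matched by symbol or gene ID.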

Additional observations from a re-analysis of the deposited data

How the results depend on the processing

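The counts of genes called kept within 1.5 times their reported values under all 18 alternatives. Genes called higher in retina numbered 3014 to 4244 and genes called lower 2774 to 4076. By 2-fold or more, 1935 to 2404 were higher and 1581 to 1982 lower. Leaving out 1 library gave 3514 to 4130 higher and 3415 to 4024 lower, and 2166 to 2384 and 1770 to 1920 by 2-fold or more. Of 173 named genes that were called, 165 held their call under every alternative, 8 lost it under at least 1 and 0 reversed. Of 18 named genes that were not called, 15 gained a call under at least 1 alternative and 0 reversed. With limma-voom, the calls of Rgs5 (1.93, adjusted p = 0.112) and Pdgfrb (1.23, adjusted p = 0.094) were lost. Some genes that edgeR did not call were called by other methods on all 6 libraries. DESeq2 called Abcc4 (-0.72), Glul (-0.41), Ltbp4 (-0.69) and Slc7a5 (-0.68) lower, and Aldoa (0.45) and Pkm (0.54) higher. Limma-voom also called Abcc4 (-0.84), Glul (-0.42) and Slc7a5 (-0.73) lower. Upper-quartile scaling called Pkm (0.57) higher. Leaving out both libraries numbered 953 ended the calls of Mfsd2a (-1.45, adjusted p = 0.0545), Slco1c1 (-1.45, adjusted p = 0.0858) and Hes1 (-0.71, adjusted p = 0.101). The same setting ended those of Slc2a1 (-0.58, adjusted p = 0.169), Rpl10a (-0.42, adjusted p = 0.161) and Lama5 (1.57, adjusted p = 0.0538). It also ended those of Rgs5 (3.86, adjusted p = 0.0549) and Pdgfrb (2.26, adjusted p = 0.067), so all 8 lost calls were lost there. Of 1584 list counts, 72 moved by more than 1.5 times. Without both libraries numbered 953, members called lower fell from 12 to 5 for barrier Wnt/beta-catenin and from 16 to 7 for transcription factors. They fell from 11 to 5 for arterial genes and from 7 to 4 for Notch genes. With the replicate number as a block, genes called higher in retina were 3874 and genes called lower in retina 3952; genes called higher in retina by 2-fold or more were 2196 and genes called lower in retina by 2-fold or more 1934. The block also called Abcb1a (-0.62), Abcc4 (-0.82), Flt1 (-0.66), Ltbp4 (-0.70), Sdpr (-0.58), Slc7a5 (-0.74) and Tek (-0.46) lower, which were not called without it. The labels do not say whether a number is 1 animal, and the main test did not treat the numbers as pairs. Deviations from the tissue mean correlated over genes at -0.09, 0.04 and 0.14 between libraries of the same number. Between libraries of different numbers the correlations were -0.26 to 0.22. With 3 libraries per tissue these values cannot show whether the samples are paired. The retina libraries held fewer counts than the brain libraries, and genes under the listing limit in a tissue could not be compared.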

Other observations

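Genes listed in only 1 of the 2 tissue tables have no fold change here, and their values describe what the joined set leaves out. In retina alone 751 genes were listed, taking 6.89 to 9.25% of the counts of the retina positive libraries, and 384 of them were listed through those libraries. Gnat1, the rod transducin, had 5555, 8670 and 10270 CPM in retina positive libraries 421, 953 and 960, at 0.837 times input. With a ratio over input of at least 2 and a mean of at least 10 CPM there were 36 genes. Arr3, the cone arrestin, had 661, 615 and 115 CPM (4.05 times input), and the collagens Col2a1 and Col7a1 had 259, 103 and 64.9 CPM and 200.1, 109 and 28.8 CPM. All 3 were highest in retina library 421 and lowest in retina library 960.

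In brain alone 1301 genes were listed, taking 1.80 to 1.91% of the counts of the brain positive libraries, and 316 of them had a ratio over input of at least 2 and a mean of at least 10 CPM. Fcrls, a microglial gene of mouse, had 375, 396 and 314 CPM (13.7 times input). Lrg1 and Lcn2, secreted proteins of the acute phase response, had 60.9, 91.4 and 380.2 CPM and 68.6, 58.1 and 311 CPM, at 33.5 and 30.9 times input. Both were highest in brain library 960.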
